A study of Oreochromis niloticus with 6 samples.

Results

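The mitochondrial solute carriers of family 25 (SLC25) were compared between livers with and without knockdown of elovl6, a fatty acid elongase, in the Nile tilapia, a freshwater fish kept in farming (Oreochromis niloticus, males). Genes were taken by name or description, as those called slc25 or ucp or described as a family 25 member, an uncoupling protein, an ADP/ATP translocase, a tricarboxylate transport protein or a mitochondrial carrier. This gave 70 of the 29528 genes in the deposited table. Of these, 59 are family 25 carriers. The other genes share only the words of the rule: 2 are pyruvate carriers of another family, and 9 are the acyl carrier protein of mitochondria and enzymes that work on it. In 3 libraries the fish had received antisense RNA against elovl6, and 3 libraries were negative controls, whose genotype the labels give as WT. All fish were male and ate pellets with 5% palm oil, and no age is given. RNA of 18 fish, 9 per group, was pooled from 3 tanks per group, and the labels do not say whether each library held its own fish, so p-values measure the spread between libraries, which may be technical. How, how much and when the antisense RNA was given is not stated in the labels.

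Family 25 carriers sit mostly in the inner mitochondrial membrane, which is closed to charged metabolites. Each member exchanges or imports a small set of substrates: nucleotides, phosphate, carboxylates, amino acids, coenzymes or metals. In liver they link the mitochondrion to fat synthesis, glucose production, urea formation and heme formation, because the enzymes of these routes are divided between matrix and cytosol. Uncoupling proteins belong to the same family and let protons or anions back across the membrane. Fish often keep several copies of one carrier, and the file names many of them only by a locus number. For those the RefSeq symbol of the same gene is given in brackets.

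Libraries held 14341242 to 17245179 reads. Levels are given as FPKM, the deposited fragments per gene length and library total, so that genes of different length can be compared. Across genes, log2(FPKM + 1) correlated at 0.994 to 0.996 for libraries of one group and at 0.900 to 0.904 for libraries of different groups. The targeted gene elovl6 was at 37.6 ± 1.48 FPKM after knockdown against 162 ± 1.53 FPKM in the controls (mean ± SD, n = 3 each, as for all such values), with no overlap. Markers of other cells differed as well. The 3 exocrine pancreas markers found summed to 75.9 to 151 FPKM after knockdown against 21034 to 21368 in the controls, and the 25 erythrocyte genes to 2629 to 2855 against 17208 to 17805 FPKM. Of the erythrocyte genes 12 were tested, of which 10 were lower and 2 higher, and 7 had no read. The 3 macrophage markers found were higher (24.3 to 29.4 against 5.73 to 6.34 FPKM), and so were the 2 biliary markers. Some markers were matched by RefSeq symbol but are described otherwise in the file. These are LOC100707775 (cd68, lysosome-associated membrane glycoprotein 2, 13.3 ± 0.850 against 3.69 ± 0.375 FPKM), LOC100692094 (hemgn, formin-like protein 1) and LOC100696076 (gata1a, GATA-binding factor 2). Of the 3 skeletal muscle markers found none reached the level needed for a test, and no adipocyte marker was found. Of 12 hepatocyte markers listed 4 were found, the fibrinogen genes fga, fgb and fgg and a gene named apo14kda. They summed to 35618 to 35926 FPKM after knockdown against 58633 to 61092 in the controls, with 3 lower and 1 higher (fga). Most of the fall in the sum was in apo14kda, at 13753 ± 45.0 against 31486 ± 822 FPKM. In bulk tissue a change in cell number and a change in RNA per cell cannot be told apart. The part of these cells in the results below was not tested. Leaving out the 3 pancreas markers before scaling left the counts of carriers called as they were, which concerns the scaling alone. The scaling already trims genes with extreme ratios, so this step could change little. It does not show whether other pancreas RNA affected the scaling.

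Among the carriers, changes went both ways. The mean FPKM over the 6 libraries reached 1 in 44 of the 70 genes, 38 of them in family 25, and these were tested with edgeR in a fit across 11431 genes. A gene was called at an adjusted p (Benjamini-Hochberg) under 0.05. Of the 44 tested genes 17 were higher and 17 lower in the knockdown, which is 77.3%, beside 78.2% of all genes tested (39.2% higher and 39% lower). In family 25, 16 of 38 were higher and 13 lower. The even split over all members depended on the filter: with no filter 14 of 62 tested members were higher and 23 lower, and with a mean of at least 5 FPKM 16 of 27 were higher and 8 lower. The 78.2% of all genes holds for the reported filter, and the shares of all genes called with the other filters are not given here. With no filter, log2 fold changes of some abundant members also moved down by a like amount, as given at the end. At least 2-fold changes were seen in 13 of the 44 genes, 4 higher and 9 lower (29.5%, beside 43% of all genes tested, 22.1% higher and 20.8% lower). Among those lower, LOC100697124, LOC100700576, slc25a48, LOC100693267 and slc25a16 had a mean under 1 FPKM after knockdown. They passed the filter only through the controls, where they were high. The 4 higher genes had means above 1 FPKM in both groups. The split of 4 and 9 can thus depend on which genes the filter let in. The median size of the log2 fold change was 0.65 in the 44 genes and 0.84 in all genes tested. The 2 groups of libraries did not overlap in 37 of the 44 genes (84.1%, beside 79.5% of all genes tested). The share of genes called was thus close to the background, and the results lie in which carriers moved and in which direction.

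**Figure D1:**
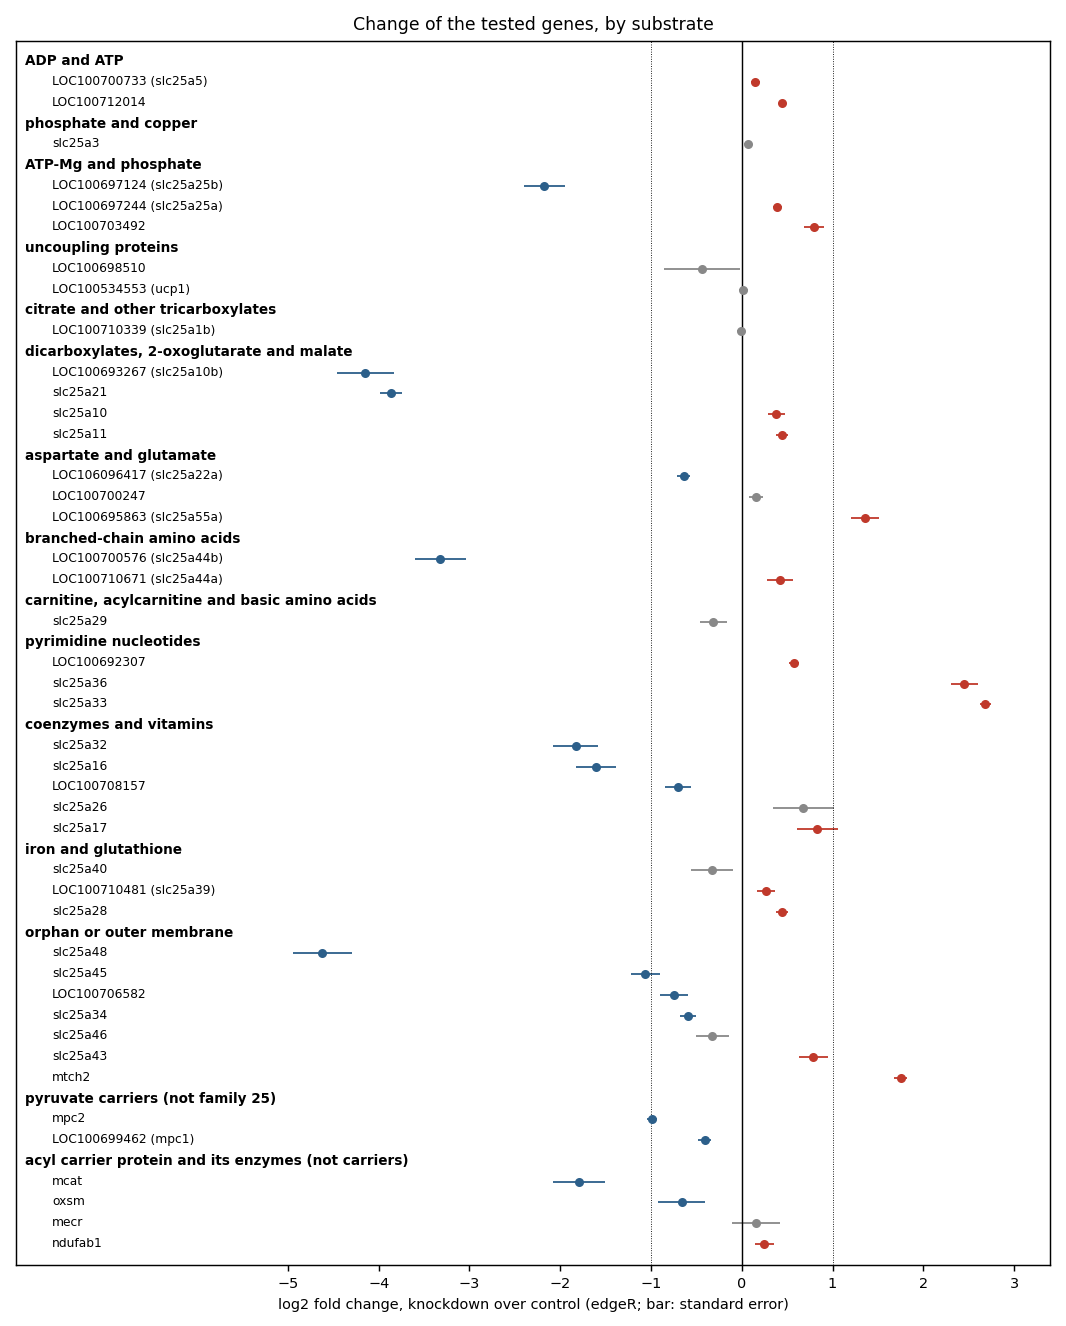
Log2 fold change (knockdown over control, edgeR) of the tested genes reported here, grouped by substrate; points are estimates, bars standard errors, red marks genes called higher, blue genes called lower and grey genes not called, and dotted lines mark a 2-fold change. All 3 pyrimidine nucleotide carriers lie to the right of 0, whereas most other classes hold genes on both sides.

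The ADP/ATP and phosphate carriers were the most abundant of the family and changed by at most 1.36-fold. ADP/ATP translocases exchange the ADP of the cytosol for the ATP made in the matrix. The main copy, LOC100712014, described as ADP/ATP translocase 2, lies on linkage group LG10 from 12589741 to 12593484 on the minus strand (coordinates of the file, equal to those of assembly O_niloticus_UMD_NMBU). It was at 587, 597 and 583 FPKM in knockdown libraries 1, 2 and 3 and at 434, 432 and 433 FPKM in control libraries 1, 2 and 3. Every knockdown library was above every control library, and the log2 fold change was 0.44 (standard error, SE, 0.03, adjusted p = 1.41e-12, edgeR), a 1.36-fold rise. This one gene made up 34.3% ± 0.313 of the summed FPKM of the 59 family 25 genes after knockdown and 30.8% ± 0.444 in the controls. The second copy, LOC100700733 (slc25a5), was at 163, 174 and 166 FPKM against 156, 153 and 143 FPKM. Its rise was small (log2 fold change 0.15, SE 0.05, adjusted p = 0.00951), and the call was lost without knockdown library 2 (adjusted p = 0.0537), without control library 3 (adjusted p = 0.0901) and with no filter on low values (adjusted p = 0.451). The gene named slc25a4, described as translocase 1, the form that in mammals is typical of heart and muscle, had 0 reads in all 6 libraries. The phosphate carrier slc25a3, which brings in the phosphate for ATP synthesis, was at 238, 239 and 239 FPKM in the knockdown and 222, 225 and 235 FPKM in the controls and was not called (log2 fold change 0.06, SE 0.04, adjusted p = 0.132). It was called higher only when genes under a mean of 5 FPKM were left out (log2 fold change 0.12, adjusted p = 0.00553).

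The ATP-Mg/phosphate carriers (SCaMC) adjust the adenine nucleotide pool of the matrix and are gated by calcium. Of 9 genes 3 were tested, and copies of SCaMC-2 moved apart. The main copy, LOC100697244 (slc25a25a), was at 67.0, 64.8 and 63.8 FPKM in the knockdown and at 47.3, 50.5 and 50.6 FPKM in the controls (log2 fold change 0.39, SE 0.05, adjusted p = 2.21e-07, edgeR). The weak copy, LOC100697124 (slc25a25b, LG7 from 8381644 to 8408081, minus strand), was at 0.318, 0.351 and 0.448 FPKM against 1.86, 1.74 and 1.44 FPKM. It fell 4.52-fold (log2 fold change -2.18, SE 0.23, adjusted p = 3.64e-09), with the groups apart. With a mean of 1.03 FPKM it was the tested member nearest to the filter. A SCaMC-1 gene, LOC100703492, was higher, at 9.87, 7.40 and 8.21 FPKM against 5.01, 4.66 and 4.94 FPKM in the controls (log2 fold change 0.80, SE 0.11, adjusted p = 2.61e-07). The other 6 had between 0 and 64 reads over the 6 libraries.

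Transcripts of the uncoupling protein gene did not differ measurably. The gene LOC100534553 carries the symbol ucp1 in RefSeq and is described in the file as uncoupling protein 2. It was at 89.5, 89.4 and 94.1 FPKM in the knockdown and at 87.2, 90.7 and 90.6 FPKM in the controls, which overlap (log2 fold change 0.02, SE 0.05, adjusted p = 0.756, edgeR). It overlaps elmod2 in position, on the other strand, and the counting is not stated to use strand. A pair of further uncoupling protein 2 genes, LOC100702672 and LOC100712231, lie 137 bases apart on LG10 and had 0 reads each. LOC100701072 had 18 reads in the knockdown and 30 in the controls, and the brain-type carrier slc25a14 had 14 and 70. The kidney-type carrier LOC100698510 was tested and not called (1.22 ± 0.464 against 1.66 ± 0.595 FPKM).

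The expressed citrate carrier gene was not called. The citrate carrier exports citrate, from which the cytosol makes acetyl-CoA for fat synthesis. Its expressed gene, LOC100710339 (slc25a1b), was at 103, 94.9 and 97.6 FPKM in the knockdown and 97.9, 101 and 97.4 FPKM in the controls. The groups overlapped, and the log2 fold change was -0.01 (SE 0.04, adjusted p = 0.796, edgeR). With no filter on low values it was called lower (log2 fold change -0.11, adjusted p = 0.0433). It made up 99.5% ± 0.219 of the summed FPKM of the 3 citrate carrier genes in the controls. Of the other citrate carrier genes, LOC100697273 had 22 reads in the knockdown and 89 in the controls, and LOC100703167 (slc25a1a) had 17 and 12.

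The dicarboxylate and oxodicarboxylate carriers held 2 of the 3 largest falls among the members tested. The gene slc25a21 encodes the oxodicarboxylate carrier, which moves 2-oxoadipate, a product of lysine and tryptophan breakdown, into the matrix. It lies on LG19 from 18791349 to 18872583 on the minus strand. Its values were 4.52, 2.35 and 3.20 FPKM in the knockdown and 46.0, 49.2 and 51.2 FPKM in the controls. Every knockdown library was far below the lowest control, a 14.6-fold fall (log2 fold change -3.87, SE 0.12, adjusted p = 1.24e-19, edgeR). The dicarboxylate carrier exchanges malate or succinate for phosphate and has 2 genes. The copy LOC100693267 (slc25a10b, LG6 from 31921960 to 31932943, minus strand) was at 0.419, 1.26 and 0.110 FPKM in the knockdown and 10.0, 11.6 and 9.87 FPKM in the controls. It fell 17.7-fold (log2 fold change -4.15, SE 0.31, adjusted p = 8.17e-12), and the knockdown libraries, with 47 reads in all, were spread widely. Without knockdown library 2 the log2 fold change was -5.31, and without knockdown library 3 it was -3.65. The other copy, slc25a10 (LG4 from 22656669 to 22662039, plus strand), was at 26.1, 22.5 and 25.4 FPKM against 18.0, 19.2 and 19.3 FPKM (log2 fold change 0.38, SE 0.09, adjusted p = 0.000555). The 2-oxoglutarate/malate carrier slc25a11, a part of the malate-aspartate shuttle, rose from 48.4, 50.3 and 50.3 to 61.8, 69.3 and 72.6 FPKM (log2 fold change 0.45, SE 0.07, adjusted p = 2.26e-06). With these opposite moves slc25a11 went from 38.9% ± 0.583 to 70.3% ± 3.24 of the summed FPKM of the 4 genes, and slc25a21 from 38.2% ± 0.890 to 3.49% ± 1.24.

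Pyruvate carriers were both lower. The proteins encoded by mpc1 and mpc2 form the pyruvate carrier of the inner membrane, the entry of glycolytic carbon into mitochondria, but they belong to another family. The gene mpc2 fell from 102, 109 and 108 to 48.8, 55.8 and 56.5 FPKM (log2 fold change -0.99, SE 0.06, adjusted p = 4.75e-14, edgeR), and LOC100699462 (mpc1) from 77.3, 73.0 and 67.4 to 59.8, 51.9 and 53.2 FPKM (log2 fold change -0.41, SE 0.07, adjusted p = 9.47e-06). In both genes every knockdown library was below every control library. Their sum was 109 ± 1.04 FPKM after knockdown against 179 ± 3.27 FPKM in the controls.

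Of the aspartate and glutamate carriers, 2 glutamate carrier genes changed in opposite directions, and the tested aspartate/glutamate carrier gene was not called. The aspartate/glutamate carrier, the other arm of the malate-aspartate shuttle, was represented by LOC100700247, described as Aralar1, at 15.3, 15.1 and 15.5 FPKM in the knockdown against 12.6, 14.2 and 14.3 FPKM. It was not called (log2 fold change 0.15, SE 0.08, adjusted p = 0.0741, edgeR), except when genes under a mean of 5 FPKM were left out (log2 fold change 0.21, adjusted p = 0.0172), and it overlaps LOC100690967 on the other strand. The gene slc25a13, whose mammalian counterpart encodes citrin, the liver form of this carrier, had 0 reads in the knockdown and 2 in the controls. Glutamate carriers import glutamate for the enzymes of the matrix. LOC106096417 (slc25a22a) fell from 15.1, 17.9 and 17.7 to 10.4, 10.9 and 11.5 FPKM (log2 fold change -0.64, SE 0.07, adjusted p = 1.66e-08). LOC100695863 (slc25a55a, LG5 from 9097086 to 9102534, plus strand), also described as glutamate carrier 1, rose from 2.11, 2.65 and 2.01 to 6.04, 5.55 and 5.77 FPKM, a 2.56-fold rise (log2 fold change 1.35, SE 0.15, adjusted p = 1.70e-08). The 7 genes of this class summed to 33.3 ± 0.608 FPKM after knockdown against 33.9 ± 2.76 FPKM in the controls, and these sums overlapped.

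For branched-chain amino acids, whose carrier SLC25A44 was described in mammals, one copy fell and the other rose slightly. LOC100700576 (slc25a44b, LG1 from 10696892 to 10703629, minus strand) was at 0.412, 0.267 and 0.279 FPKM in the knockdown and 3.05, 3.18 and 3.35 FPKM in the controls, a 9.98-fold fall that rested on 40 reads in the knockdown against 451 (log2 fold change -3.32, SE 0.28, adjusted p = 8.99e-11, edgeR). LOC100710671 (slc25a44a) was at 4.90, 5.37 and 5.70 FPKM against 3.92, 3.67 and 4.27 FPKM (log2 fold change 0.42, SE 0.14, adjusted p = 0.00867), a call lost with no filter on low values (adjusted p = 0.0619). The share of the b copy in the sum of the pair went from 44.7% ± 1.48 to 5.71% ± 1.76. The basic amino acid carrier slc25a29 was at 2.85, 3.12 and 3.13 FPKM in the knockdown and 3.51, 3.96 and 3.82 FPKM in the controls. It was not called by edgeR (log2 fold change -0.32, SE 0.15, adjusted p = 0.056), but was called lower by limma on log2(FPKM + 1) (adjusted p = 0.0439), by limma on log2(FPKM + 0.1) (adjusted p = 0.0455) and by edgeR with no filter (adjusted p = 0.0253). The gene described as a carnitine/acylcarnitine carrier, LOC100712546, was below the filter, with 15 reads in the knockdown and 89 in the controls.

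The pyrimidine nucleotide carriers rose together. They import the pyrimidine nucleotides that mitochondria need to copy and transcribe their own DNA. The gene slc25a33 (LG20 from 21405347 to 21412608, minus strand) was at 102, 101 and 100.4 FPKM in the knockdown and 16.3, 16.0 and 14.7 FPKM in the controls. All knockdown libraries were far above the controls, a 6.43-fold rise (log2 fold change 2.68, SE 0.06, adjusted p = 5.32e-23, edgeR). The gene slc25a36 (LG14 from 7390329 to 7404627, plus strand) rose 5.47-fold, from 1.74, 1.83 and 1.74 to 9.03, 10.7 and 9.48 FPKM (log2 fold change 2.45, SE 0.15, adjusted p = 6.71e-14). LOC100692307, described as member 36-A, rose from 22.8, 24.7 and 22.4 to 36.3, 34.0 and 34.4 FPKM (log2 fold change 0.58, SE 0.05, adjusted p = 6.79e-10). In the controls LOC100692307 was the most abundant of the 3, and in the knockdown slc25a33 was, with 69.4% ± 0.176 of their sum against 38.5% ± 1.22. The class as a sum was 3.58-fold higher, at 146 ± 1.57 FPKM after knockdown against 40.8 ± 1.89 FPKM in the controls. Among the classes as filled by the naming rule, no other differed in its sum by more than 1.65-fold. Carriers outside the rule, given below, are not in these sums. Among them LOC100693853, described as a coenzyme A carrier, was 7.42-fold higher, and LOC100712317 (slc25a17l) was 5.45-fold lower.

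**Figure D2:**
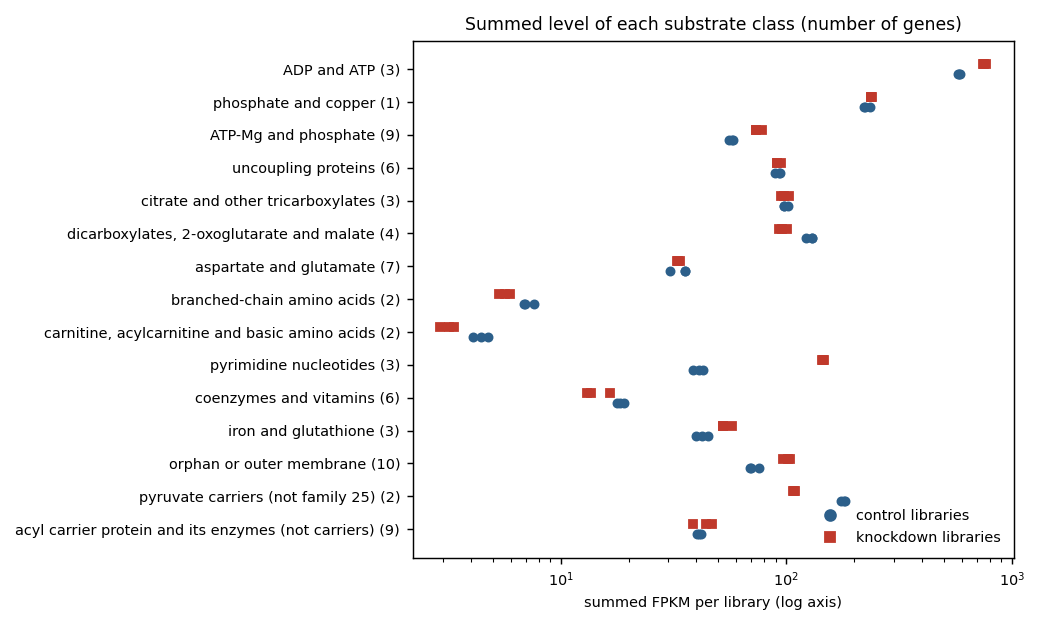
Summed FPKM of each substrate class in every library (log axis; number of genes in brackets); blue circles are the 3 control libraries and red squares the 3 knockdown libraries. The pyrimidine nucleotide class lies at 146 ± 1.57 FPKM in the knockdown against 40.8 ± 1.89 FPKM in the controls. The citrate, uncoupling protein, aspartate and glutamate, and acyl carrier protein classes overlap between the groups.

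Carriers of coenzymes and vitamins moved both ways: of those described here 3 fell, 1 rose and 1 was not called. Of all genes tested 78.2% were called, 39.2% higher and 39% lower, so such a split is common among genes at large. The gene slc25a32, a carrier of folate and FAD, fell from 5.63, 5.36 and 4.24 to 1.21, 1.14 and 1.93 FPKM (log2 fold change -1.83, SE 0.24, adjusted p = 2.51e-07, edgeR). It lies on LG11 from 15122005 to 15126971 on the minus strand. The gene slc25a16, known as the Graves disease carrier and linked to coenzyme A in the matrix (LG13 from 17646641 to 17654729, plus strand), fell from 2.49, 2.51 and 2.61 to 0.615, 0.846 and 1.05 FPKM (log2 fold change -1.60, SE 0.22, adjusted p = 4.63e-07). In both genes the groups were clearly apart, but slc25a16 overlaps LOC102081773 in position, on the other strand, and reads of the pair could not be told apart. LOC100708157, described as member 51, an importer of NAD in mammals, fell by 0.70 on the log2 scale (SE 0.15, adjusted p = 0.00013). The peroxisomal carrier slc25a17 was the class member with the highest mean level. It was at 7.08, 4.91 and 5.23 FPKM in the knockdown and 3.22, 3.17 and 3.22 FPKM in the controls (log2 fold change 0.83, SE 0.23, adjusted p = 0.0021), and it overlaps znf598 in position on the minus strand that both share. The S-adenosylmethionine carrier slc25a26 was at 1.78, 3.07 and 4.24 FPKM against 1.40, 2.07 and 2.20 FPKM and was not called (adjusted p = 0.0701), except without knockdown library 1 (log2 fold change 0.94, adjusted p = 0.0122).

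Of the iron and glutathione carriers, mitoferrin-2, slc25a28, which imports iron for heme and iron-sulfur clusters, rose from 27.4, 29.4 and 29.0 to 37.8, 37.1 and 41.8 FPKM (log2 fold change 0.44, SE 0.06, adjusted p = 9.78e-07, edgeR). Every knockdown library was above every control library. LOC100710481 (slc25a39), a glutathione importer in mammals, was at 12.8, 12.2 and 12.2 FPKM against 9.19, 11.7 and 9.83 FPKM (log2 fold change 0.27, SE 0.10, adjusted p = 0.0166). That call was lost without control library 1 (adjusted p = 0.0955), without control library 3 (adjusted p = 0.0708) and with no filter (adjusted p = 0.161). Its relative slc25a40 was not called (2.93 ± 0.835 against 3.68 ± 0.260 FPKM). These genes serve heme synthesis too. Of the 12 erythrocyte genes tested 10 were lower and 2 higher in the same libraries, and a link to these carriers was not tested. Further mitoferrin genes are given below, among the genes outside the naming rule.

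Outer membrane and less studied members held the largest fall and a large rise. The gene mtch2 encodes mitochondrial carrier homolog 2, which in human cells inserts proteins into the outer membrane. It lies on LG1 from 3934350 to 3954718 on the plus strand and rose 3.37-fold, from 18.8, 21.3 and 19.1 to 69.1, 69.8 and 61.3 FPKM (log2 fold change 1.75, SE 0.07, adjusted p = 5.57e-17, edgeR). LOC100706582, carrier homolog 1, went the other way, from 6.70, 6.89 and 6.66 to 4.32, 3.68 and 4.11 FPKM (log2 fold change -0.75, SE 0.15, adjusted p = 9.13e-05). The gene slc25a48 (LG2 from 6864160 to 6876043, plus strand), linked in mammals to choline import, was at 0.357, 0.179 and 0.0856 FPKM in the knockdown and 5.60, 4.32 and 5.42 FPKM in the controls. Its 24.6-fold fall was the largest among the members tested (log2 fold change -4.62, SE 0.32, adjusted p = 1.94e-12), and rested on 21 reads in the knockdown against 591. Without knockdown library 1 the log2 fold change was -5.26. The gene slc25a45 (LG20 from 27096948 to 27101955, minus strand) fell from 9.34, 10.8 and 10.1 to 5.49, 3.87 and 5.14 FPKM (log2 fold change -1.06, SE 0.16, adjusted p = 1.76e-06). Smaller changes were a fall of slc25a34 (log2 fold change -0.59) and a rise of slc25a43 (0.79). The latter ends 572 bases before the ADP/ATP translocase gene LOC100700733 on LG2, the only tested pair of members within 100000 bases of each other. The fission-related gene slc25a46 was not called (4.45 ± 0.648 against 5.57 ± 1.11 FPKM, adjusted p = 0.103), but was called lower with no filter (adjusted p = 0.0365) and without control library 3 (adjusted p = 0.0378), and it overlaps LOC100703784 on the other strand.

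**Figure D3:**
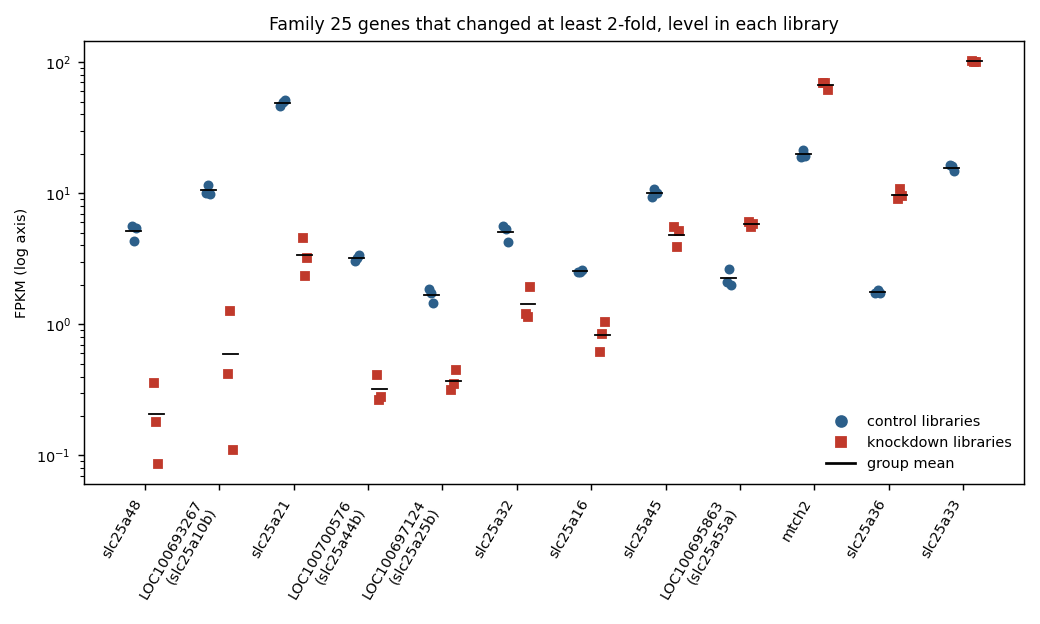
FPKM (log axis) of the 12 family 25 genes that were called and changed at least 2-fold, in every library; blue circles are control and red squares knockdown libraries, and black lines are group means. The groups do not overlap in any of the 12, which were chosen by their change in these same libraries. Of all genes tested 79.5% do not overlap either. The widest spread is in the knockdown libraries of LOC100693267 (slc25a10b), between 0.110 and 1.26 FPKM.

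Among the genes that share only the word carrier, malonyl-CoA transacylase, mcat, which feeds the fatty acid synthesis of mitochondria, fell from 7.01, 5.15 and 5.97 to 1.31, 1.16 and 2.76 FPKM (log2 fold change -1.79, SE 0.28, adjusted p = 3.49e-06, edgeR). The acyl carrier protein itself, ndufab1, was at 32.5, 41.4 and 37.4 FPKM against 30.0, 32.0 and 31.3 FPKM (log2 fold change 0.25, SE 0.10, adjusted p = 0.0281), and the synthase oxsm at 1.01, 0.474 and 1.26 FPKM against 1.41, 1.38 and 1.53 FPKM (log2 fold change -0.66, SE 0.26, adjusted p = 0.0233). Both calls were lost in several alternatives, and oxsm overlaps ngly1 on the other strand. The reductase mecr was not called (adjusted p = 0.601). Of 5 further transacylase copies on LG18, 3 had no read, LOC106097611 had 1 read and LOC109195426 had 19 reads in the knockdown against 1 in the controls.

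Genes of one orthology group did not always move together. In 8 orthology groups of the file at least 2 family 25 genes were tested, which makes 12 pairs. In 6 pairs the genes were called in opposite directions, in 5 in the same direction, and in 1 pair they were not both called. Of all genes tested 39.2% were higher and 39% lower, so calls in opposite and in the same direction are both common among genes at large, and the pairs share genes: 3 come from the ATP-Mg/phosphate group and 3 from the pyrimidine nucleotide group. The opposite pairs were those of slc25a10b with slc25a10, slc25a44b with slc25a44a, slc25a25b with each of slc25a25a and LOC100703492, slc25a22a with slc25a55a, and carrier homolog 1 with mtch2. For slc25a44b over slc25a44a the log2 ratio of the levels (FPKM + 0.1) was -3.71 ± 0.363 in the knockdown and -0.30 ± 0.0843 in the controls. For slc25a10b over slc25a10 it was -5.55 ± 1.44 and -0.84 ± 0.121. These ratios are a description, since a 2-sided exact permutation test of 3 against 3 libraries cannot go below p = 0.1. In the pairs of slc25a10, slc25a44, slc25a25 and the carrier homologs the gene that fell was the one with the lower FPKM in the controls, whereas slc25a22a and slc25a55a were ordered the other way.

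**Figure D4:**
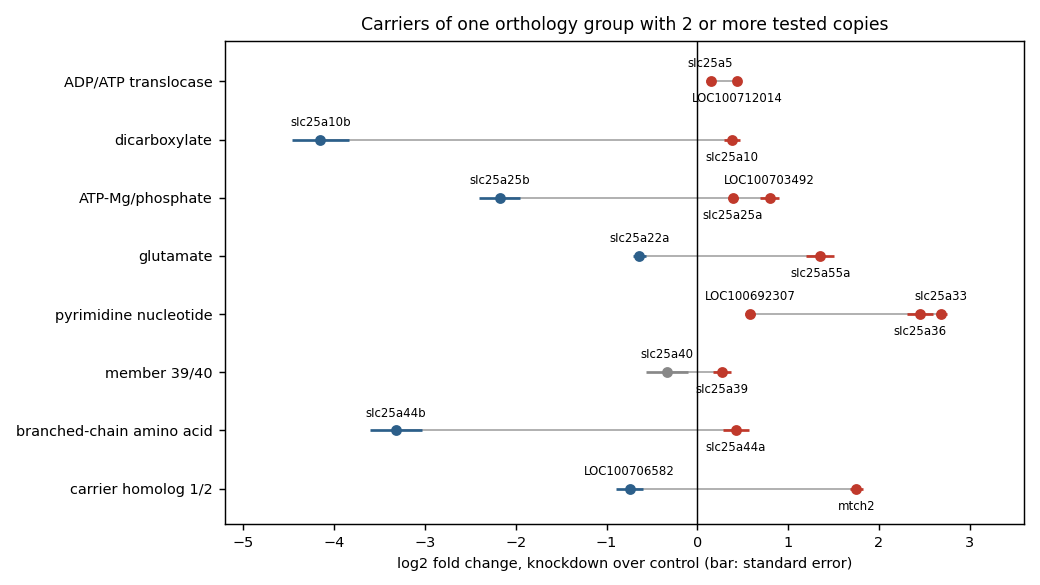
Log2 fold change (knockdown over control) of family 25 genes in the 8 orthology groups with at least 2 tested genes. Points are estimates and bars standard errors, red is called higher, blue called lower and grey not called. In the dicarboxylate, ATP-Mg/phosphate, glutamate, branched-chain amino acid and carrier homolog groups the genes lie on both sides of 0. Genes of one group need not be copies of one carrier, as with carrier homolog 1 and mtch2.

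Summed over the 59 family 25 genes, the FPKM was 1.22-fold higher, at 1715 ± 6.77 after knockdown against 1405 ± 17.0 in the controls. This was 0.242% ± 0.00109 and 0.220% ± 0.00334 of the summed FPKM of all genes. The ADP/ATP translocases went from 583 ± 6.95 to 757 ± 12.6 FPKM, and the pyrimidine nucleotide carriers from 40.8 to 146 FPKM, so that these 2 classes held most of the difference. The dicarboxylate class fell from 128 ± 4.73 to 96.5 ± 4.36 FPKM and the coenzyme class from 18.4 ± 0.675 to 14.4 ± 1.79 FPKM. The coenzyme sum holds only genes taken by the naming rule, and its direction depends on that rule. Outside it, LOC100693853, described as a coenzyme A carrier, was at 27.6 ± 1.06 FPKM after knockdown against 3.71 ± 0.474 in the controls. Lower means were those of LOC100705019 (2.99 against 3.36 FPKM) and LOC100712317 (slc25a17l, 0.933 against 5.08 FPKM). Tested members were expressed at a median of 6.22 FPKM, beside 4.66 FPKM for all genes tested, and their median length was 2078 bases against 2733. Family 25 genes lay on 19 linkage groups, and 2 were on unplaced sequences.

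Below the filter were 26 members, 21 of them family 25 carriers. Of the 26, 8 had no read, and the other 18 had mean levels up to 0.955 FPKM. That highest level was of slc25a12, described as Aralar1, with 170 reads in the knockdown and 144 in the controls. In 4 of the 26 the FPKM of the groups did not overlap: slc25a14, LOC100712546, LOC109195426 and LOC100698356 (slc25a23a, with 43 reads in the knockdown and 21 in the controls). No test was made of these genes, whose reads were few. The share without overlap among all genes below the filter was not computed, so the 4 have no background to be set beside.

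Another 10 genes are described as family 25 carriers in words that the naming rule does not contain. They were added after their values were seen and are not counted above. Of these 6 were tested, of which 2 were higher, 2 lower and 2 not called (66.7% called, beside 78.2% of all genes tested). LOC100693853, described as the coenzyme A carrier SLC25A42, was at 27.9, 26.5 and 28.5 FPKM in the knockdown and 4.22, 3.61 and 3.29 FPKM in the controls (7.42-fold higher, log2 fold change 2.89, SE 0.10, adjusted p = 3.65e-19, edgeR). Its second copy, LOC100705019 (slc25a42), was not called (2.99 ± 0.241 against 3.36 ± 0.165 FPKM). LOC100709688 (slc25a38a), the glycine importer of heme synthesis, was higher, at 7.94, 6.84 and 6.68 FPKM after knockdown against a control mean of 1.78 ± 0.126 FPKM (log2 fold change 1.99, SE 0.18, adjusted p = 4.09e-10). LOC100712317 (slc25a17l), a copy of the peroxisomal carrier, fell from 4.68, 4.40 and 6.16 to 0.799, 0.850 and 1.15 FPKM (log2 fold change -2.45, SE 0.21, adjusted p = 1.19e-10), opposite to slc25a17. A second mitoferrin-2 gene, LOC100706153, fell (log2 fold change -0.34, SE 0.09, adjusted p = 0.0016), opposite to slc25a28. Mitoferrin-1, LOC100707111 (slc25a37), the erythroid form in vertebrates, was below the filter with 4 reads in the knockdown and 114 in the controls. The ornithine carrier slc25a15b (LOC100705538) was not called (1.39 ± 0.144 against 1.04 ± 0.209 FPKM).

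Genes that work beside the carriers were taken from 8 lists with 140 symbols, of which 113 were found. Without members, 96 genes were tested, of which 28 were higher and 51 lower (82.3%, beside 78.2% of all genes tested). Among the outer membrane channels and ADP/ATP exchange partners 4 of 10 were higher and 4 lower (80%). The anion channels LOC100698339 (vdac3, described in the file as channel 2) and vdac1 rose by log2 fold changes of 1.66 and 1.13, while hk1, a hexokinase that docks on such channels, and LOC100711554 (cyb5b) fell by 4.51 and 1.57 on the log2 scale. Among the other inner membrane transporters 7 of 18 were higher and 9 lower (88.9%). The calcium uniporter subunit smdt1 (log2 fold change 3.31, SE 0.37) and sfxn5 of the sideroflexins (2.44, SE 0.12) rose. The serine carrier sfxn1 fell by 1.62 on the log2 scale, and abcb10 had 0 reads in the knockdown against 299 in the controls.

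In the list of citrate and malate shuttle enzymes 3 of 18 tested genes were higher and 10 lower (72.2%, beside 78.2% of all genes tested). The median log2 fold change was -0.74, and of all genes tested 39.2% were higher and 39% lower. Largest in the list were falls of pck1 (-6.45) and got1 (-3.10) and rises of the malic enzymes me1 (4.03) and me3 (1.69). ATP citrate lyase, acly, which cleaves the exported citrate and was picked after its values were seen, was at 9.69, 10.3 and 9.50 FPKM in the knockdown and 42.6, 43.3 and 43.5 FPKM in the controls, while the citrate carrier gene overlapped between the groups. In the list of carnitine and acylcarnitine enzymes 2 of 7 tested genes were higher and 5 lower (100%). That list also holds acadvl, acadm, LOC100703423 (hadhab) and hadhb, which are enzymes of fatty acid breakdown and not carnitine enzymes. All of these were lower. LOC100693325 (cpt1ab), which forms acylcarnitine at the outer membrane, rose (log2 fold change 1.43) and so did crat (2.07), whereas cpt2 (-2.79) and LOC100703423 (hadhab, -1.58) fell. In the urea cycle list 5 of 10 were higher and 3 lower (80%). Up were otc (log2 fold change 5.11, SE 0.16) and LOC100534445 (glula, 4.46), and down were LOC100706482 (arg1, -1.42) and LOC100707972 (glud1b, -1.14).

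Users of the carried cofactors were split, with 6 of 17 higher and 7 lower (76.5%, beside 78.2% of all genes tested). The branched-chain aminotransferase LOC100711018 (bcat2, described in the file as cytosolic), the first enzyme of branched-chain amino acid breakdown, rose (log2 fold change 2.09, SE 0.09). Coenzyme A synthase, coasy, rose too (1.04, SE 0.08). The glycine decarboxylase gldc (-2.85) and ferrochelatase, fech, the last enzyme of heme synthesis (-2.50), fell. In the list of mitochondrial biogenesis regulators 11 of 14 genes were lower and 1 higher (85.7%, beside 78.2% of all genes tested). That list also holds the PPAR receptor genes ppara, LOC100709869 (pparab), ppard and pparg, of which all but ppara were lower. It was chosen with earlier results of these data known, so its counts are a description. Of all genes tested 39% were lower. The median log2 fold change of these regulators was -1.05, beside -0.01 for all genes tested. The coactivator gene pprc1 fell from 9.26 ± 0.455 to 0.315 ± 0.0926 FPKM, LOC100709869 (pparab) fell by 2.39 on the log2 scale, and ppara, the member that rose, had a log2 fold change of 0.44. The remaining list, of thermogenesis partners, had 2 tested genes, the deiodinases dio1 and dio2, and both were lower (log2 fold changes -0.71 and -0.74).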

How the data were processed

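Poly(A) RNA of 6 liver libraries, 3 per group, was sequenced from both ends in reads of 150 bases, per the labels' protocols. The submitters' processing notes name cutadapt 1.9 and HISAT. The counting program, its handling of strand and of multiply mapped reads, and the build were not given in the sources used here, so closely related copies may share reads. Per the file headers, the deposited table holds a read count and an FPKM per gene and library. The authors' FPKM equalled count over length and library total in 100% of values (relative tolerance 1e-05). Gene identifiers matched the RefSeq table of O_niloticus_UMD_NMBU in 29526 of 29528 cases, with equal start and end in 99.99% of them.

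The counts were tested with edgeR 4.0.16 (R 4.3.3, TMM scaling, quasi-likelihood, no covariate) over genes whose mean FPKM reached 1, which held 99.0% of reads. An SE is the size of the log2 fold change divided by the square root of F. Adjusted p-values are edgeR's except where DESeq2 1.42.0 or limma 3.58.1 stands beside them. The fits were tried on simulated data in which a far smaller part of the genes changed than here. The simulation therefore does not measure how they perform on these data. Members and lists were chosen with earlier results of these data known. Members described in full are the most abundant of each class and those changed at least 2-fold. Partner genes named are the largest changes of each list, up to 2 per direction, unless said otherwise. Replicates differed by more than sampling noise (chi-square per degree of freedom 3.24 to 4.61 within groups).

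Alternatives were other scaling (RLE factors, library totals, TMM without pancreas markers), other filters, other tools, each library left out, and the replicate number as a block. No sequences were used. A member that counts in the totals is not reported here by name.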

Additional observations from a re-analysis of the deposited data

How the results depend on the processing

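The number of members called higher (17) ranged from 14 to 18 and of those called lower (17) from 15 to 17 with each library left out. With genes under a mean of 5 FPKM left out, 27 members were tested, of which 16 were called higher and 8 lower. With no filter 62 were tested, of which 14 were higher and 23 lower. The shares of all genes called with these filters are not given here. Partner genes called higher (28) and lower (51) ranged from 27 to 28 and from 49 to 51 with a library left out. Of the 34 members called, 28 kept direction and call in every one of the 15 alternatives in which they were tested. Exceptions included LOC100700733, oxsm, ndufab1, LOC100710671 and LOC100710481. For oxsm the log2 fold change was -0.35 without knockdown library 2 (adjusted p = 0.144), and for ndufab1 0.16 (adjusted p = 0.173). Some family 25 genes reported as changed at least 2-fold fell short of that size in an alternative, though they stayed called. The log2 fold change of slc25a45 was -0.93 without knockdown library 2. The smallest falls over the alternatives were -0.95 for slc25a16 and -0.96 for LOC100697124 (slc25a25b). Neither came from leaving out a library, which gave -1.799 to -1.426 for slc25a16 and -2.332 to -2.075 for LOC100697124.

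Signs turned only in genes that were not called with the reported settings: LOC100710339 (log2 fold change 0.0427 with the 5 FPKM filter, -0.0456 to 0.0109 with a library left out), mecr (-0.0366 to 0.335 with a library left out), slc25a3 (-0.0337 with no filter) and LOC100534553 (-0.0801 with no filter, -0.0072 to 0.0291 with a library left out). With no filter LOC100710339 (-0.111, as reported -0.013), slc25a3 (-0.0337, as reported 0.0641) and LOC100534553 (-0.0801, as reported 0.0178) moved down by a like amount. The filter also sets which genes enter the TMM scaling. The cause of these turns was not tested.

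Chosen after seeing the data, a count of family 25 alone gave 16 higher and 13 lower, and family 25 together with the 10 genes outside the naming rule gave 18 and 15.

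The replicate numbers did not pair the libraries: deviations of same-numbered libraries from their group means correlated at 0.001, 0.007 and 0.002. With the replicate number as a block, 17 members were higher and 17 lower, and 28 and 51 partner genes. Low counts limit slc25a10b, slc25a44b, slc25a48 and all members below the filter. Antisense and overlapping transcripts could not be separated.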
